A study of Mus musculus with 6 samples.

Results

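Kinesins are motor proteins that use ATP to move along microtubules or, in some families, to shorten them. Every gene symbol made of Kif or Kifc and a number was taken, after the Ensembl identifiers in the libraries had been paired with the GENCODE M21 annotation. This rule, which uses names and no measured value, found 44 of the 22380 gene identifiers. It found 42 genes of the kinesin superfamily, the kinesin-binding protein gene *Kif1bp*, whose product has no motor domain, and the pseudogene *Kif4-ps*. By their known roles, 15 of the genes were grouped as mitotic kinesins, 15 as transport kinesins and 14 as other kinesins, the last with *Kif1bp* and *Kif4-ps*.

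RNA was measured in mouse embryonic stem cells (mESC) with and without a recent deletion of the TET dioxygenases, the enzymes that oxidize 5-methylcytosine in DNA, and the study asked which genes bearing on chromosome segregation change with this loss. *Ctrl* mESC (n = 3) carried a tamoxifen-inducible CreERT2 and a Rosa26 LSL-H2b-Egfp reporter that Cre switches on. *Tet iTKO* mESC (n = 3) carried the same Cre and reporter and floxed alleles of *Tet1*, *Tet2* and *Tet3*, so that both groups carry Cre and a recombined reporter, and floxed alleles differ between them. Both were exposed to 1 µM tamoxifen (4-hydroxytamoxifen in the study's methods) for 2.5 days, grown for 4 more days and collected at day 6.5, in 2i medium on feeder fibroblasts, then sorted as live EGFP+ CD326+ Thy1.2- cells. The study's reporting statement says that the populations of each genotype came from different embryos. Its legend for these libraries speaks of 3 independent experiments, and the labels give a replicate number only. The p-values below measure the spread between libraries, and whether each library is a separate population cannot be told.

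The deposited values are normalized counts, rounded to whole numbers, and summed to between 3964824 and 4219665 per library. From the steps that rounding leaves, about 3.66 M to 5.10 M reads on genes were estimated behind them, and 3 normalized counts were taken as the floor, which covers counting error only. The pluripotency genes *Pou5f1*, *Nanog* and *Sox2* were at 991 or more in every library, and of 7 such genes *Esrrb* and *Epcam* were higher and *Pou5f1*, *Nanog* and *Zfp42* lower in *Tet iTKO*. Of 4 genes of primed epiblast found, *Otx2* and *Dnmt3b* were higher. With the GC content and length correction described below, *Nanog*, *Zfp42*, *Esrrb* and *Dnmt3b* were no longer called. Their log2 fold changes were then -0.10, -0.10, 0.06 and 0.07. *Epcam* and *Otx2* stayed higher and *Pou5f1* lower, while *Tfcp2l1* was then called lower (-0.44). The values of the targeted genes cover exons inside and outside the floxed ones and so do not check the deletion. *Tet1* was at 696, 682 and 716 in *Ctrl* and 787, 895 and 753 in *Tet iTKO*, *Tet2* was at 249, 170 and 230 against 233, 268 and 211, and *Tet3* was at 28, 13 and 13 against 10, 3 and 3.

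In dividing cells, kinesins push spindle poles apart, trim microtubule ends at kinetochores, push chromosome arms and organise the antiparallel microtubules between separating chromosomes, where the cleavage furrow forms. Between divisions, other kinesins carry vesicles, organelles and RNA, mostly outward along microtubules, with kinesin-1 and its light chains as the general carrier. *Kif5a*, *Kif5c*, *Kif1a* and *Kif3c* are best known from neurons, whereas *Kif5b* is found in most tissues.

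Promoter sequences are given first, since some members hold motifs known from cell cycle genes. The first set holds mitotic kinesins, the base before RefSeq's start of each gene being counted as -1. Capitals mark the CHR element, searched as TTTGAA or TTCGAA, and the CCAAT box, searched as CCAAT, each on both strands, so that CCAAT on the other strand reads ATTGG. The CHR element is a short sequence known from promoters of genes used in late cell cycle, and the CCAAT box is often found upstream of it. *Kif11*, *Kif15* and *Kif22* are shown as mitotic genes that did not pass the test and whose CHR element lies next to the start, and *Kif18a* and *Kif23* as ones that passed it. All sequences are RefSeq's, in GRCm38.p6, and cover the 250 bases before RefSeq's start, 5′ to 3′ on the strand of the gene. For the promoters printed here, that start lies between 25 bases before and 51 bases after the start of the gene in GENCODE M21. *Kif11* is on the plus strand at chr19:37376132-37376381, *Kif15* on the plus strand at chr9:122950831-122951080 and *Kif22* on the minus strand at chr7:127042421-127042670. *Kif23* is on the minus strand at chr9:61946800-61947049 and *Kif18a* on the plus strand at chr2:109280488-109280737.
Kif11: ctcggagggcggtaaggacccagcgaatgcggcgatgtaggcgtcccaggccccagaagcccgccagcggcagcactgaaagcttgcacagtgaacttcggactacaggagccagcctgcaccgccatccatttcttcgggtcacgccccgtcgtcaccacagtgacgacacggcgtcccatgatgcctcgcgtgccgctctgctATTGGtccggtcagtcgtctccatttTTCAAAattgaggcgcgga
Kif15: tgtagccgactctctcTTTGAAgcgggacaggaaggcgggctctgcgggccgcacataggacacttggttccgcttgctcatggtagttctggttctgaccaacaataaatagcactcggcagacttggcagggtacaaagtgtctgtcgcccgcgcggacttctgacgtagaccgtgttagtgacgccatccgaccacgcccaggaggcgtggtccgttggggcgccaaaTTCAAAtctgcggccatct
Kif22: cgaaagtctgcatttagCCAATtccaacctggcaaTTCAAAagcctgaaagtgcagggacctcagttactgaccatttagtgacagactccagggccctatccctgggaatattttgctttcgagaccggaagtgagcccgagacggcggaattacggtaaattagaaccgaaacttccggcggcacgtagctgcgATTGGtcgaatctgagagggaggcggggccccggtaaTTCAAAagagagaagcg
Kif23: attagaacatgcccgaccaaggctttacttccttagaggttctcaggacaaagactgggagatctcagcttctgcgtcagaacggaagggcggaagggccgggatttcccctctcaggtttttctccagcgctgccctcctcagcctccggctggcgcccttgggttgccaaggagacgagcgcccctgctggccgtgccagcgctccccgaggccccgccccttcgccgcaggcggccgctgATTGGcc
Kif18a: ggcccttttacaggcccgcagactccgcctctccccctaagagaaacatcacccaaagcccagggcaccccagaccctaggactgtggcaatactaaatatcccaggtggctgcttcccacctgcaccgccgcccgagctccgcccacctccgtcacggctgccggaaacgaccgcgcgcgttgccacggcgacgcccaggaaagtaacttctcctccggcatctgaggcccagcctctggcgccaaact
*Kif11* holds a CHR element at -19 and a CCAAT box at -45, and *Kif22* holds CHR elements at -17 and -215 and CCAAT boxes at -54 and -233. *Kif15* has CHR elements at -19 and -234 and no CCAAT box in this window. *Kif23* holds a CCAAT box at -7 and no CHR element, and *Kif18a* holds neither. Of the 14 mitotic kinesin promoters in the table, 5 (35.7%) held a CHR element and 9 (64.3%) a CCAAT box, against 0 and 3 (30%) of 10 transport kinesin promoters. Among the 8334 promoters of tested genes, 11.9% held a CHR element and 37.3% a CCAAT box. The windows of *Kif2c*, *Kif14*, *Kif4*, *Kif17* and *Kif27* lie wholly inside the gene as M21 gives it, and which start these cells use was not tested. Without such windows, an alternative chosen after the data had been seen, 3 of 11 mitotic kinesins (27.3%) held a CHR element and 7 (63.6%) a CCAAT box, against 11.9% and 38.5% of 6929 tested promoters. A GC box, searched as GGGCGG, was in 50% of the mitotic, 60% of the transport and 62.4% of the tested promoters, and an E2F core, searched as TTCCCGC, in 7.14%, 0% and 7.58%, both on either strand. No letters of the CHR element and the CCAAT box overlap in the promoters printed here.

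The second set holds 2 transport kinesins that were higher in *Tet iTKO* mESC, with every CpG in capitals, the dinucleotide on which TET enzymes act. Methylation was not measured in these libraries. *Kif5c* is on the plus strand at chr2:49619036-49619285 and *Kif3c* on the plus strand at chr12:3364882-3365131.
Kif5c: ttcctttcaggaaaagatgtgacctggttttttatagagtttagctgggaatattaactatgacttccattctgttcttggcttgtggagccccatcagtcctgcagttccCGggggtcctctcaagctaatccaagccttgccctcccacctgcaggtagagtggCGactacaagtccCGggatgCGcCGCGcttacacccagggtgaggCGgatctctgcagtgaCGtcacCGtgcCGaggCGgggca
Kif3c: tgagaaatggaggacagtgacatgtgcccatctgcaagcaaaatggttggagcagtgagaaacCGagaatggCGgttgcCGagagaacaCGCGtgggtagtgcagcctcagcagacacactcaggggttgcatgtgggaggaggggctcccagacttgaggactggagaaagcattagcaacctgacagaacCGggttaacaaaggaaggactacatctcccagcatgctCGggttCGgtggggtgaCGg
*Kif5c* holds 11 CpG and *Kif3c* 9, the smallest numbers among the 10 transport kinesin promoters, whose median was 22. The median was 19.5 in the mitotic promoters and 17 in those of all tested genes. *Kif1b*, which was also higher, holds 32. In all, 33 of the 44 members were matched to a promoter. *Kif5a*, *Kif13b*, *Kif21b*, *Kif19a*, *Kif28*, *Kifc2*, *Kifc3*, *Kif4-ps*, *Kif20a*, *Kif5b* and *Kif1bp* were not.

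*Kif23* rose, and *Kif18a* and *Kif20a* fell, among the 14 of 15 mitotic kinesins with a mean of at least 10 normalized counts, the minimum for testing, and no log2 fold change among them reached 1. Genes were called at an adjusted p under 0.05 by limma with Benjamini-Hochberg adjustment over all 10524 genes tested, of which 34.8% were called. Of the mitotic kinesins 3 of 14 were called (21.4%), with 1 higher where 16.4% of all genes were higher, and 2 lower where 18.4% were lower. Their median log2 fold change was -0.00, next to 0.01 over all genes tested, and the median size of the change was 0.17 against 0.29. These are bulk samples, in which fewer cells of a type and less RNA per cell cannot be told apart.

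*Kif18a*, which dampens chromosome movements at the ends of kinetochore microtubules, showed the largest change of the mitotic kinesins. It was at 167, 147 and 139 normalized counts in *Ctrl* and at 122, 90 and 79 in *Tet iTKO*, so that every *Tet iTKO* library lay below every *Ctrl* library. The log2 fold change was -0.65 ± 0.17 (SE; limma, adjusted p = 0.0033). *Kif18b*, its paralog, which acts on astral microtubules, was at 123, 125 and 107 in *Ctrl* and at 117, 132 and 163 in *Tet iTKO*, with a log2 fold change of 0.20 (95% interval -0.13 to 0.54). The log2 ratio of *Kif18a* to *Kif18b* was 0.44, 0.23 and 0.37 in *Ctrl* and 0.06, -0.55 and -1.04 in *Tet iTKO*, a difference of -0.86. The groups did not overlap, and the exact two-sided permutation test gave p = 0.1, the smallest that 3 against 3 allow (0.233 after Benjamini-Hochberg adjustment over the 7 pairs compared).

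*Kif20a* and *Kif23*, both motors of the central spindle and of cytokinesis, moved in opposite directions. *Kif20a*, which helps bring the chromosome passenger complex to the midzone, was at 849, 811 and 834 in *Ctrl* and at 688, 675 and 706 in *Tet iTKO* (log2 fold change -0.27 ± 0.07 SE; limma, adjusted p = 0.0032). *Kif23*, the motor of the centralspindlin complex, was at 411, 359 and 339 in *Ctrl* and at 460, 483 and 522 in *Tet iTKO* (log2 fold change 0.40 ± 0.09 SE; limma, adjusted p = 0.0009). Neither gene's groups overlapped. The log2 ratio of *Kif20a* to *Kif23* was between 1.04 and 1.30 in *Ctrl* and between 0.43 and 0.58 in *Tet iTKO*, with a difference of -0.67 (exact permutation p = 0.1, adjusted 0.233).
*Kif20a* shares 1271 exon bases with *Cdc23* on the opposite strand. The library kit keeps no strand, so reads from that stretch cannot be told apart, and *Cdc23* was also lower, at a mean of 722 against 850 in *Ctrl* (log2 fold change -0.23). Its part in the value of *Kif20a* was not tested. The partner of *Kif23* in centralspindlin, *Racgap1*, rose as well, from 855, 809 and 832 to 988, 1062 and 987 (log2 fold change 0.28; limma, adjusted p = 0.0012). The log2 ratio of *Kif23* to *Racgap1* differed by 0.12 between groups that overlapped (exact permutation p = 0.4, adjusted 0.56).

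*Kif11*, the kinesin-5 that slides spindle poles apart, was at 494, 477 and 474 in *Ctrl* and at 445, 460 and 423 in *Tet iTKO*. The *Tet iTKO* libraries were all below the *Ctrl* libraries, by a log2 fold change of -0.12 (95% interval -0.30 to 0.05; limma, adjusted p = 0.29). *Kif2c*, also called MCAK, which depolymerises misattached kinetochore microtubules, was at 453, 496 and 473 in *Ctrl* and at 516, 478 and 456 in *Tet iTKO*. Its groups overlapped, with a log2 fold change of 0.03 and an interval from -0.15 to 0.20. *Kif22*, a chromosome arm motor, had the highest level per kilobase of transcript of all kinesins, at 277 normalized counts per kb in *Ctrl* and 276.6 in *Tet iTKO*, and a log2 fold change of -0.00 with an interval from -0.14 to 0.14. *Kif20a* (226.3 per kb) and *Kif2c* (166.8 per kb) came next in *Ctrl*.

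The other mitotic kinesins had overlapping groups and did not pass the test. *Kif15*, which acts beside *Kif11*, was at 188 to 249 normalized counts over the 6 libraries, with a log2 fold change of -0.13. The chromokinesin *Kif4* was at 107 to 150, with -0.14. *Kif14* and *Kif20b*, both used in cytokinesis, were at 67 to 116 and at 141 to 257, with -0.01 and -0.21, and in both the highest value was that of *Ctrl* replicate 1. *Kif14* had the lowest level per kilobase of the tested mitotic kinesins, 9.36 in *Ctrl*. *Kif2a*, a depolymerase of spindle poles and also of interphase cells, was at 152 to 182, with 0.07. The log2 ratio of *Kif2c* to *Kif2a* differed by -0.05 (exact permutation p = 0.8). The minus-end-directed *Kifc1*, which focuses spindle poles, was at 141 to 218 and had 0.28, with an interval from -0.02 to 0.57, and its near copy *Kifc5b* was at 16 to 42 and had 0.39, with an interval from -0.31 to 1.09. Without *Tet iTKO* replicate 2, *Kifc1* had 0.42 (limma, adjusted p = 0.045). The authors kept uniquely aligned reads, so reads common to these 2 genes are missing from both values. *Kif2b* was at 0 in all 6 libraries. *Kif2a* shares 1229 exon bases with *Dimt1* and *Kif4* 832 with *Pdzd11*, each on the opposite strand.
*Kif4* lies on the X chromosome, whose 340 tested genes had a median log2 fold change of -0.08. Transcripts of the Y-linked *Ddx3y*, *Eif2s3y*, *Kdm5d* and *Uty* were present in all 6 libraries, and their sum was 615 to 652 in *Ctrl* and 388 to 398 in *Tet iTKO*. *Eif2s3y* was at 363, 344 and 375 in *Ctrl* and at 182, 181 and 178 in *Tet iTKO* (50% of the *Ctrl* mean; limma, adjusted p = 5.6e-09), and the other 3 were not called. The part of what sets the Y-linked genes apart in the kinesin values was not tested. *Prc1*, which *Kif4* carries to the midzone, had a log2 fold change of 0.13, and the log2 ratio of *Kif4* to *Prc1* lay between -1.94 and -1.70 in *Ctrl* and between -2.19 and -2.06 in *Tet iTKO*, a difference of -0.26 (exact permutation p = 0.1, adjusted 0.233).

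**Figure D1:**
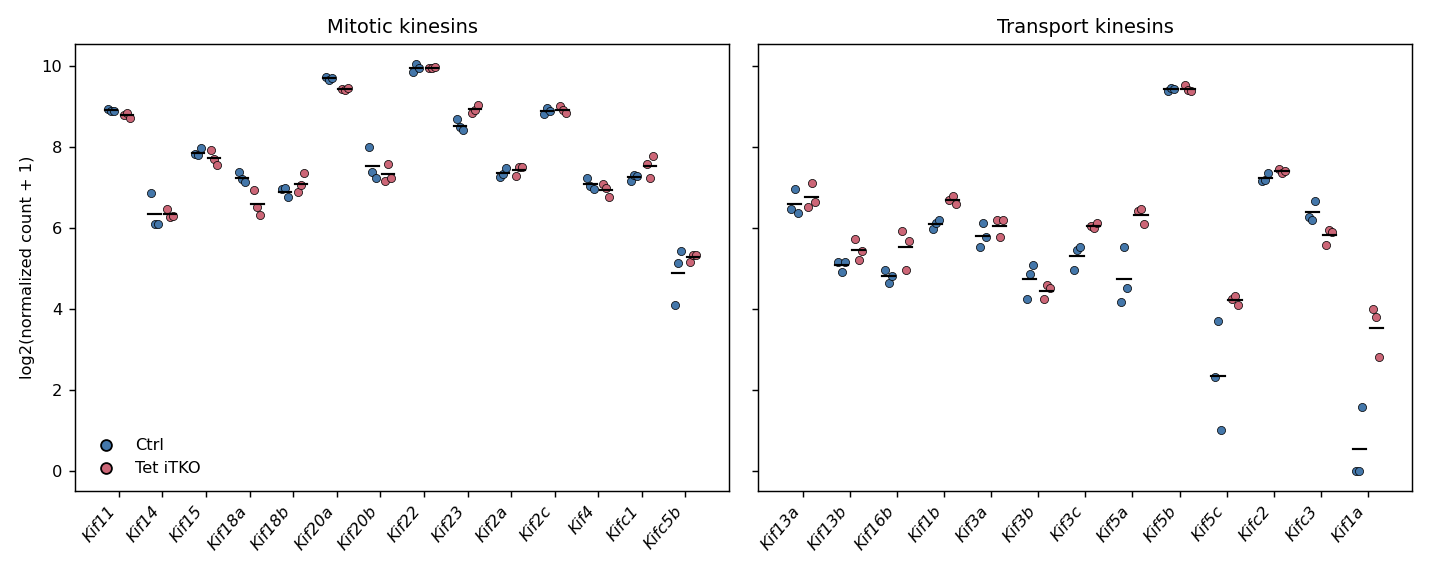
Levels of the kinesins in each library, as log2(normalized count + 1), for the 14 tested mitotic kinesins (left) and the 12 tested transport kinesins with *Kif1a*, which was below the minimum for testing (right). Each point is a library, with 3 *Ctrl* libraries in blue and 3 *Tet iTKO* libraries in red, and each bar the mean of the plotted values. The groups lie apart for *Kif11*, *Kif18a*, *Kif20a* and *Kif23* on the left and for *Kif5a*, *Kif5c*, *Kif3c*, *Kif1b*, *Kif13b*, *Kifc3* and *Kif1a* on the right, while they overlap for *Kif2c*, *Kif22* and *Kif5b*.

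Summed over the 15 mitotic kinesins, levels per kilobase were 1167, 1173 and 1148 in *Ctrl* and 1160, 1143 and 1171 in *Tet iTKO*, so that the groups overlapped. Of 10 genes of dividing cells, *Mki67* and *Plk1* were higher and *Cdk1*, *Ccnb1*, *Ccnb2* and *Cdc20* lower in *Tet iTKO*. *Mki67* (0.13) and *Cdc20* (-0.09) were no longer called after the GC content and length correction described below. The summed level of the 10 genes was 13487 to 14424 in *Ctrl* and 12381 to 12703 in *Tet iTKO*. The sum of 10 S phase genes overlapped between the groups, at 18498 to 19555 in *Ctrl* and 18978 to 19013 in *Tet iTKO*. The part of these lists in the values of *Kif18a*, *Kif20a* and *Kif23* was not tested.

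*Kif5a* and *Kif5c* of kinesin-1, *Kif3c* of kinesin-2 and *Kif1b* of kinesin-3 were higher in *Tet iTKO* and the C-terminal motor *Kifc3* was lower, among 12 of 15 members with a mean of at least 10. Of these 12, 4 were higher where 16.4% of all genes tested were higher, and 5 (41.7%) were called in either direction beside 34.8%. *Kif5c* reached the minimum only through its *Tet iTKO* values, with a mean of 17.7 against 5.67 in *Ctrl*, so that its entry to the test followed from the group in which it was high, and these counts and medians are a description that shows no difference from other genes. *Kif5a* changed by a log2 fold change of at least 1, as did 6.25% of all genes tested, 4.95% upward, and so did *Kif5c*. The median log2 fold change was 0.31, and the median size 0.47, against 0.01 and 0.29 over all genes tested.

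*Kif5a*, like *Kif23*, was called under each of the 16 alternative settings. It was at 17, 45 and 22 normalized counts in *Ctrl* and at 85, 88 and 67 in *Tet iTKO*, so that the lowest *Tet iTKO* library exceeded the highest *Ctrl* library. The log2 fold change was 1.59 ± 0.30 (SE; limma, adjusted p = 7.3e-05), a ratio of the means of 2.86. *Kif5c* went from 4, 12 and 1 to 18, 19 and 16 (log2 fold change 1.88 ± 0.66 SE; limma, adjusted p = 0.024). Its levels are near the floor in *Ctrl*, and with no filter on low genes the adjusted p was 0.077. Leaving out 1 library lost the call in 4 of 6 cases: without *Ctrl* replicate 3, where it was at 1, the log2 fold change was 1.21 (adjusted p = 0.12), and without *Tet iTKO* replicate 1, 2 or 3 the adjusted p was 0.083, 0.092 or 0.063.
*Kif5b*, the kinesin-1 heavy chain of most tissues, was at 667, 707 and 687 in *Ctrl* and at 739, 680 and 672 in *Tet iTKO*, with a log2 fold change of 0.02 (95% interval -0.13 to 0.17). Per kilobase it was at 113.9 in *Ctrl*, the highest of the transport kinesins, whereas *Kif5a* was at 4.45 in *Ctrl* and 12.7 in *Tet iTKO*, and *Kif5c* was the lowest of those tested, at 0.827 and 2.58. *Kif5a* thus made up 2.37%, 5.67% and 2.97% of the summed kinesin-1 heavy chain level per kilobase in *Ctrl* and 9.74%, 10.8% and 8.56% in *Tet iTKO*. The groups did not overlap, and *Kif5b* remained the main heavy chain by level in every library.

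Of kinesin-2, which carries cargo along axons and into cilia, *Kif3c* rose while *Kif3a* and *Kif3b* did not pass the test. *Kif3c* was at 30, 43 and 45 in *Ctrl* and at 65, 63 and 69 in *Tet iTKO* (log2 fold change 0.75 ± 0.26 SE; limma, adjusted p = 0.025). The call was lost, at adjusted p between 0.059 and 0.11, when *Ctrl* replicate 1 or any of the 3 *Tet iTKO* replicates was left out. *Kif3a* was at 45 to 72 over the 6 libraries, with a log2 fold change of 0.24 (95% interval -0.25 to 0.74), and *Kif3b* at 18 to 33, with one of -0.28 (-1.07 to 0.51). The log2 ratio of *Kif3a* to *Kif3b* differed by 0.52 with overlapping groups (exact permutation p = 0.3, adjusted 0.525). *Kif3c* accounted for 20.2%, 19.1% and 22.4% of the summed *Kif3a*, *Kif3b* and *Kif3c* level per kilobase in *Ctrl* and for 26.9%, 30.5% and 27.6% in *Tet iTKO*. *Kif3c* shares 2617 exon bases with *1110002L01Rik* on the opposite strand, which was at a mean of 34.3 in *Ctrl* and 33.0 in *Tet iTKO*. *Kif17*, the homodimeric kinesin-2, was at 0 in every *Ctrl* library and at 2, 1 and 1 in *Tet iTKO*, below the floor.

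Of kinesin-3, carriers of vesicles and organelles, *Kif1b* was at 62, 69 and 72 in *Ctrl* and at 103, 110 and 95 in *Tet iTKO* (log2 fold change 0.59 ± 0.20 SE; limma, adjusted p = 0.018). The groups did not overlap, and the call was lost without *Ctrl* replicate 1 (adjusted p = 0.054) and without *Tet iTKO* replicate 2 (0.084). *Kif1a*, a carrier of synaptic vesicle precursors, was at 0, 0 and 2 in *Ctrl* and at 15, 13 and 6 in *Tet iTKO*, which is too low a mean for testing. Its ratio of *Tet iTKO* to *Ctrl* was 15.9, with an exact 95% counting interval from 4.11 to 136 on estimated reads. Here and for the other such ratios, the interval covers counting error only and not the spread between populations. PCR copies of a read are not independent molecules, and *Ctrl* lies under the floor. *Kif1c* was at 5 to 7 in *Ctrl* and at 6 to 16 in *Tet iTKO*. *Kif16b*, a carrier of early endosomes, was at 30, 24 and 27 in *Ctrl* and at 60, 30 and 50 in *Tet iTKO* (log2 fold change 0.72, 95% interval 0.06 to 1.38; limma, adjusted p = 0.084). Without *Tet iTKO* replicate 2, the library at 30, its log2 fold change was 1.00 (adjusted p = 0.033). *Kif13a*, at 82 to 138, and *Kif13b*, at 29 to 52, had log2 fold changes of 0.17 and 0.37 and did not pass the test.

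The C-terminal motor *Kifc3*, which moves toward microtubule minus ends and acts at cell junctions, was the only transport kinesin called lower. It was at 76, 73 and 101 in *Ctrl* and at 47, 61 and 59 in *Tet iTKO*, with groups apart (log2 fold change -0.57 ± 0.23 SE; limma, adjusted p = 0.049). The call lay at the threshold: leaving out 1 library lost it in 5 of 6 cases, with *Ctrl* replicate 2 as the exception, and the log2 fold change was -0.42 without *Ctrl* replicate 3. *Kifc2* was at 143 to 176 and had a log2 fold change of 0.18 (95% interval -0.11 to 0.46).

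**Figure D2:**
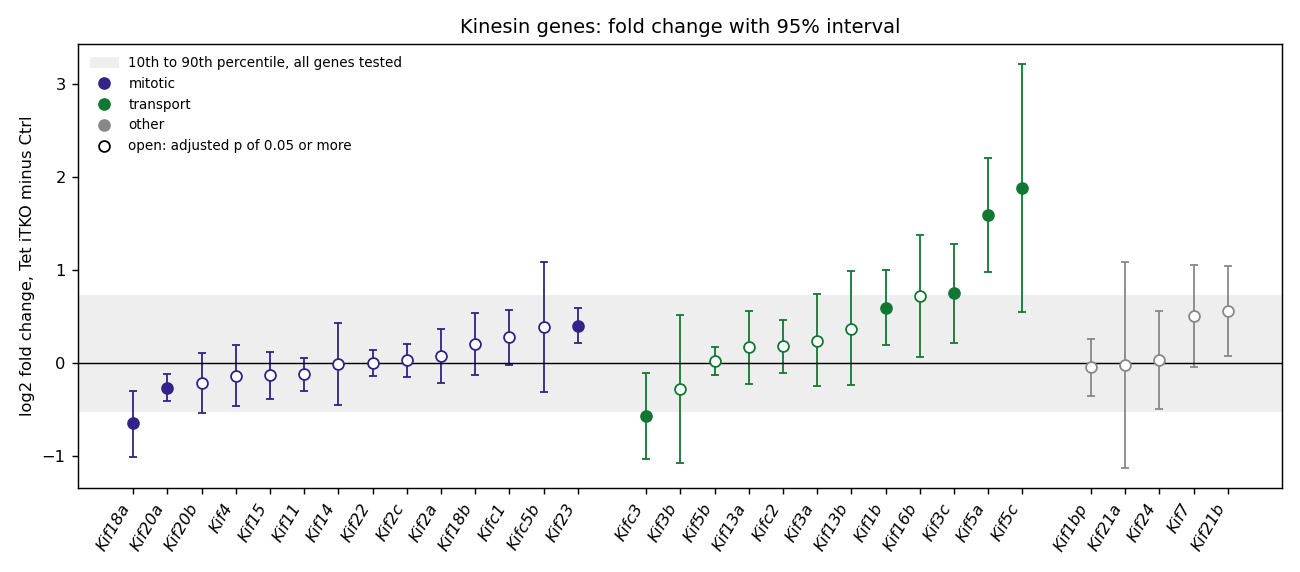
Log2 fold change of *Tet iTKO* against *Ctrl* for the 31 tested members, ordered within mitotic, transport and other kinesins. Bars are 95% intervals from limma, filled points passed an adjusted p of 0.05, and the grey band runs from the 10th to the 90th percentile of all genes tested, -0.52 to 0.72. The mitotic kinesins lie between -0.65 and 0.40, *Kif5a*, *Kif5c* and *Kif3c* (0.75) lie above the band with *Kif16b* (0.72) at its edge, and *Kif18a* (-0.65) and *Kifc3* (-0.57) lie below it.

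Summed over the 15 transport kinesins, levels per kilobase were 230.7, 258.4 and 255.7 in *Ctrl* and 285.1, 272.2 and 269.7 in *Tet iTKO*. These sums stood at 19.8% to 22.3% of those of the mitotic kinesins in *Ctrl* and at 23.0% to 24.6% in *Tet iTKO*, and neither the sums nor the shares overlapped. Without *Kif5b*, the normalized counts of the other 14 transport kinesins summed to 552, 666 and 643 in *Ctrl* and to 813, 814 and 774 in *Tet iTKO*.

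**Figure D3:**
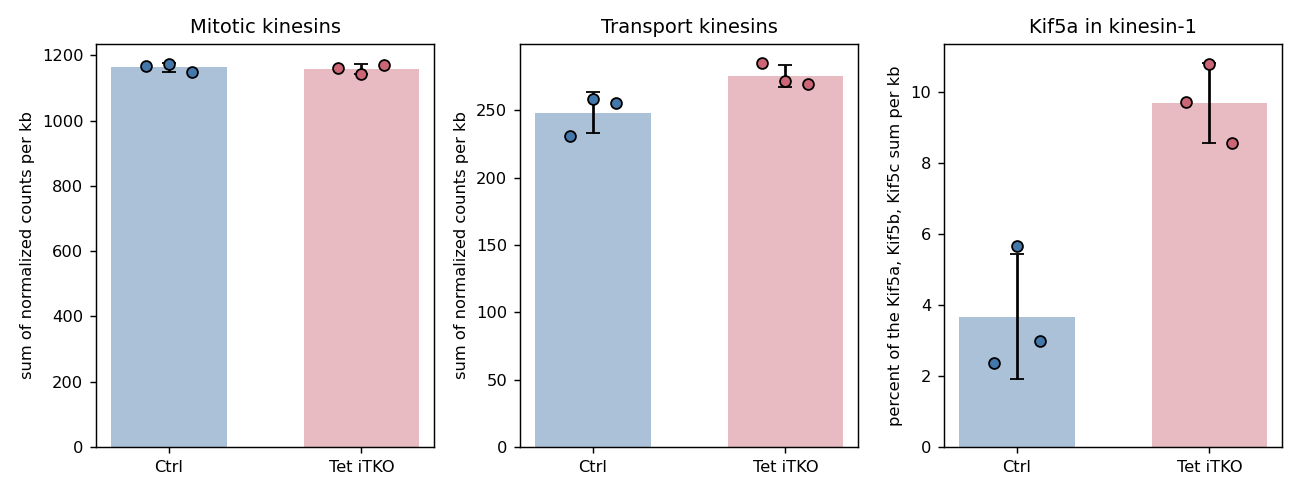
Summed levels per kilobase of the 15 mitotic (left) and 15 transport kinesins (middle), and *Kif5a* as a percent of the summed level of *Kif5a*, *Kif5b* and *Kif5c* (right). Points are libraries, bars are means of 3 libraries and error bars are SD. The mitotic sums overlap, while each *Tet iTKO* point lies above each *Ctrl* point in the other 2 panels.

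Since the tested transport kinesins have long transcripts, fold changes were also computed after each library was corrected for GC content and transcript length. The median longest transcript was 6.35 kb for the tested transport kinesins, 4.25 kb for the mitotic kinesins and 3.35 kb for all genes tested. After correction, 26.4% of all genes were called, 12.5% higher and 13.9% lower, and the median of the transport kinesins was 0.16. *Kif5a* stayed called at 1.29 (adjusted p = 0.0012) and *Kif5c* at 1.71 (0.049), whereas *Kif3c* at 0.48 (0.18) and *Kif1b* at 0.28 (0.32) did not, and *Kifc3* was at -0.90 (0.0025). *Kif18a*, *Kif20a* and *Kif23* stayed called, at -0.59 (0.0082), -0.26 (0.0047) and 0.48 (0.00011). The part of length and GC content in the values of *Kif3c* and *Kif1b* was not tested beyond this.

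**Figure D4:**
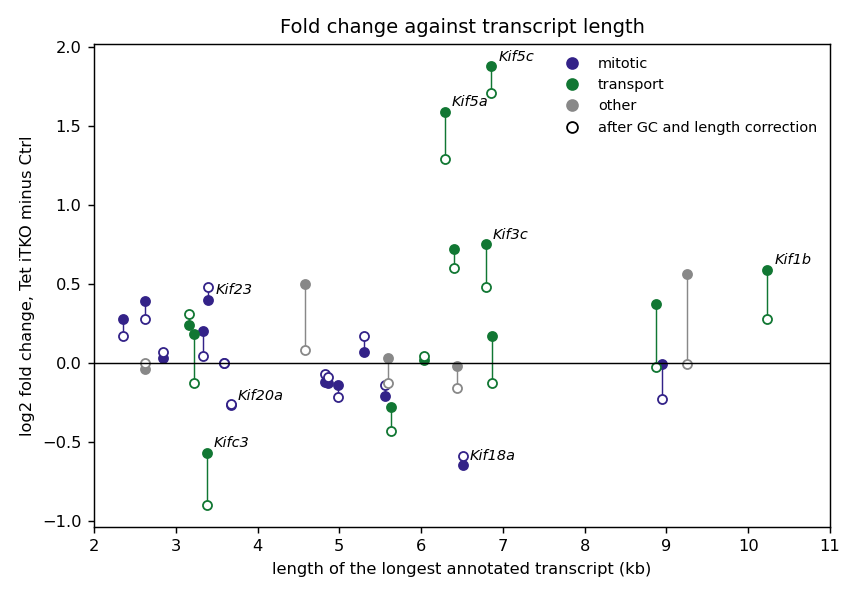
Log2 fold change against the length of the longest annotated transcript, in kilobases, for the 31 tested members, before (filled) and after (open) correction of each library for GC content and length, joined by lines. Names mark the 8 members called before correction. The open points of *Kif1b* and *Kif3c* lie nearer to 0, those of *Kif5a* and *Kif5c* stay above 1, and that of *Kifc3* lies lower.

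Markers of other cell types were set beside the transport kinesins, since several of these are known from neurons and since the mESC grew on feeder cells. Of 8 neuronal genes, *Stmn2* was lower in *Tet iTKO*, *Tubb3* had a log2 fold change of 0.00, *Dcx* was at 0 in all libraries, *Syt1* was at 0 or 1, and *Snap25* at 0 to 5. *Nefl* was at 10 to 30 and *Map2* at 0 to 9 over the libraries. *Elavl3* was at 1 to 3 in *Ctrl* and at 12, 3 and 3 in *Tet iTKO*. The sum of the list was 2532 to 2882 in *Ctrl* and 2202 to 2245 in *Tet iTKO*. Most of it came from *Stmn2*, at a mean of 1980 in *Ctrl* and 1511 in *Tet iTKO*, so the sum says little of the other genes. Of 10 fibroblast genes, *Col1a1*, *Col1a2* and *Col3a1* were higher in *Tet iTKO*, and the sum was 281 to 295 in *Ctrl* and 479 to 557 in *Tet iTKO*. The rise of the sum lay in these collagens. *Dcn*, *Lum* and *Pdgfrb*, which were too low for testing, had lower means in *Tet iTKO*, at 3, 1.67 and 3 against 6.67, 3.67 and 3.67 in *Ctrl*. *Thy1*, the surface marker that the sort excluded, was at 30 to 46 in *Ctrl* and 23 to 47 in *Tet iTKO*, and *Postn*, *S100a4* and *Twist1* were at 5 or less in every library. The 4 genes of 2-cell-like cells that were found summed to 9 to 23 in *Ctrl* and to 141 to 166 in *Tet iTKO*. The part of the fibroblast and 2-cell-like genes in the values of the transport kinesins was not tested.

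None of the 5 tested other kinesins was called by limma, where 34.8% of all genes tested were, and 1 of them, *Kif21b*, had an unadjusted p under 0.05. *Kif21b*, a motor that slows microtubule growth, was at 63, 40 and 47 in *Ctrl* and at 72, 72 and 74 in *Tet iTKO* (log2 fold change 0.56, 95% interval 0.07 to 1.04; adjusted p = 0.072), and its log2 fold change was -0.01 after the GC content and length correction. Without *Ctrl* replicate 1 it was 0.73 (adjusted p = 0.031). *Kif7*, a regulator of Hedgehog signalling at the tip of the cilium, was at 32 to 66 and had 0.50 (95% interval -0.04 to 1.05) with groups that did not overlap, and 0.08 after correction. *Kif24*, which acts at centrioles, was at 40 to 66, *Kif21a* at 6 to 17 and *Kif1bp* at 142 to 211, with log2 fold changes of 0.03, -0.02 and -0.04. None of the 4 tested genes of ciliated cells, *Foxj1*, *Ift88*, *Ift172* and *Arl13b*, was called by limma, and none had an unadjusted p under 0.05.

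The 13 members below the minimum for testing included 2 that were near 0 in *Ctrl* and above the floor in every *Tet iTKO* library. Besides *Kif1a*, this was *Kif26a*, a family member without motor activity that is known from enteric neurons, at 0, 0 and 1 in *Ctrl* and at 10, 9 and 8 in *Tet iTKO*. Its ratio was 25.8, with an exact 95% counting interval from 4.29 to 1053 on estimated reads, again for counting error only. As for *Kif1a*, that ratio was computed because the *Tet iTKO* values were high, so it is a description only. Every *Tet iTKO* library had more genes above 0 (14024 to 14363) than every *Ctrl* library (13431 to 13539). How many of all genes rose from near 0 to above the floor in this way was not counted. *Kif27* was at 1, 0 and 1 in *Ctrl* and at 2, 2 and 10 in *Tet iTKO*, a ratio of 6.89 with a counting interval from 1.62 to 61.7. That ratio rests mostly on *Tet iTKO* replicate 3. *Kif9* went the other way, at 1, 5 and 2 in *Ctrl* against 1, 1 and 0 in *Tet iTKO*, and lay outside the choice for such ratios. *Kif12*, *Kif19a*, *Kif26b* and *Kif28* did not exceed 1 in any library, and *Kif2b*, *Kif6* and *Kif4-ps* were at 0 throughout. Of the tested members, 8 had every *Tet iTKO* library above every *Ctrl* library and 4 had every one below, of 31, where 21.2% and 22.9% of all genes tested were so placed.

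Genes that work with kinesins changed in both directions. Of 53 partner genes found, 52 were tested, and 11 were higher and 6 lower in *Tet iTKO*, a share of 32.7% next to 34.8% of all genes. Among 12 genes of the spindle midzone and chromosomes, *Racgap1*, *Cdca8*, *Plk1* and *Cit* were higher and *Birc5* was lower. *Birc5*, or survivin, a subunit of the chromosome passenger complex that *Kif20a* helps to relocate, fell from 1638, 1663 and 1659 to 1214, 1262 and 1246 (log2 fold change -0.41; limma, adjusted p = 5.2e-07). Its complex partners *Aurkb* and *Incenp* had 0.09 and -0.05 and were not called. With the GC content and length correction, *Incenp* was called lower (-0.21, limma adjusted p = 0.043) and *Aurkb* was not called (0.19, 0.099). *Prc1* was then called higher (0.24, 0.026), and of the 12 genes 4 were higher and 2 lower. *Cit*, the citron kinase of the cleavage furrow that *Kif14* binds, rose from 199, 203 and 184 to 299, 244 and 261 (log2 fold change 0.45; limma, adjusted p = 0.0034), and after the GC content and length correction both the call and the direction were lost (-0.04; adjusted p = 0.86). Of 7 spindle pole and tip genes, *Numa1* was higher (0.46; adjusted p = 0.00083) and *Mapre1* lower. After the correction *Numa1* was no longer called (0.05; adjusted p = 0.79), whereas *Mapre1* stayed lower (-0.28; 0.0031), as did *Birc5* (-0.35; 7.2e-06), and *Racgap1* stayed higher (0.28; 0.0016).

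Of 19 kinesin light chains and cargo adaptors, 4 were higher and none was lower by limma, beside 16.4% and 18.4% of all genes tested, with 6 at an unadjusted p under 0.05 in either direction. The light chain gene *Klc3* was at 14, 17 and 3 in *Ctrl* and at 40, 54 and 56 in *Tet iTKO*, so that the groups lay well apart (log2 fold change 2.30 ± 0.45 SE; limma, adjusted p = 0.00011). *Klc1*, *Klc2* and *Klc4* had 0.10, 0.34 and -0.20 and were not called, and the log2 ratio of *Kif5b* to *Klc1* differed by -0.08 (exact permutation p = 0.8). *Arl8a*, a small GTPase that links lysosomes to kinesin, rose by 0.74 (adjusted p = 9.4e-06), the kinesin-1 adaptor gene *Mapk8ip1* by 0.71 (0.0031) and the mitochondrial adaptor gene *Trak1* by 0.53 (0.0012). After correction for GC content and length, *Klc3* and *Arl8a* stayed called (2.11 and 0.87), and *Mapk8ip1* and *Trak1* did not (0.39 and 0.18), while *Klc4* (-0.36; adjusted p = 0.033) and the lysosomal adaptor gene *Plekhm2* (-1.22; 0.008) were then called lower, so that 2 were higher and 2 lower. Of the 14 tested genes of cytoplasmic dynein, dynactin and their regulators, the machinery that moves the opposite way, *Dync1h1* (0.45; adjusted p = 0.0018) and *Ndel1* were higher. *Dynll2* (-0.58; adjusted p = 0.0047), *Dctn3* (-0.45; 0.001), *Dynll1* and *Dync1i2* were lower. After the correction *Dync1h1* (-0.10, limma adjusted p = 0.57), *Dctn3* (-0.15, 0.33) and *Dync1i2* (-0.15, 0.27) were no longer called, and *Dync1h1* changed direction. *Ndel1* (0.47, 0.0085), *Dynll2* (-0.59, 0.0049) and *Dynll1* (-0.19, 0.012) stayed called. *Nde1* (0.32, 0.01) and *Dctn2* (0.19, 0.022) were then called higher and *Dctn1* (-0.56, 4.3e-05) lower, so that 3 were higher and 3 lower.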

How the data were processed

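RNA from sorted mESC was measured in 3 *Ctrl* and 3 *Tet iTKO* libraries. Per the labels and the study's methods, the authors aligned Smart-Seq2 reads with STAR (unique alignments), counted them with HTSeq 0.7.1, with its stranded setting although the kit keeps no strand, and normalized them with DESeq2 1.26.0 in R 3.5.2. The labels name mm9. The deposited values have the unit score, since they are normalized counts rounded to whole numbers, so no count test was run. Symbols, lengths and GC content came from GENCODE M21 (GRCm38), matched by Ensembl identifier without version, which paired 20775 of 22380 identifiers. Promoters came from RefSeq (GRCm38.p6).

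The members and gene lists were chosen with earlier results of these data known. The comparison used limma 3.58.1 (R 4.3.3; a linear model per gene with variance moderated along a trend on expression) on log2(normalized count + 1). It covered the 10524 genes whose mean was 10 or more, adjusted by the Benjamini-Hochberg procedure and called at 0.05. On this scale the added 1 shrinks the fold changes of genes near 0. Fold changes of other low genes can lie above the log2 ratio of the means, as those of *Kif5a*, *Kif5c* and *Klc3* do. Tested members were named with their fold change, called ones and the markers *Kif11*, *Kif2c* and *Kif18a* with each library's value, as were further members set beside them, and of the partners called the 10 largest changes, with *Racgap1* added. Genes sharing exons were chosen after their values were seen. Ratios used exact two-sided permutation tests. Counting intervals (exact binomial, 95%) used reads estimated from size factors, recovered within 1% in 20 of 20 simulated libraries. Data were also simulated for the same groups, with the same dispersion for every gene and changes only in genes with a mean of at least 50. Read depth was not modelled. In these data, 94 of 100 genes with a log2 change of 1, 14 of 100 with 0.5 and 1 of 10335 unchanged genes were called. Alternatives were pseudocounts, filters, normalizations (quantiles, trimmed mean of M values), variance trend, replicate block, GC content and length correction (loess, span 0.3), a fold threshold, the class of *Kif2a* and leaving out each library. Other steps ran in Python 3.11.15 (SciPy 1.17.1, NumPy 2.4.6, pandas 2.3.3, matplotlib 3.10.9).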

Additional observations from a re-analysis of the deposited data

How the results depend on the processing

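*Kif23* and *Kif5a* were called under all 16 alternatives, *Kif18a* under 15 of 16 (not without the variance trend, adjusted p = 0.052) and *Kif20a* under 14 of 16. *Kif1b* was called under 12 of 16, *Kifc3* under 9 of 16, *Kif3c* under 8 of 16 and *Kif5c* under 8 of 15, and 20 members were called under no setting. Of the mitotic kinesins, 1 was higher and 2 were lower; quantile normalization left 1 lower, no variance trend 0 lower, and a fold threshold (log2 size of at least 1) 0 in either direction. Of the transport kinesins, 4 were higher and 1 lower; quantile normalization, the GC content and length correction and the fold threshold each left 2 higher, and no filter, no variance trend and the fold threshold each left 0 lower. With no filter beyond a mean above 0, 1 other kinesin, *Kif26a*, was higher (adjusted p = 0.0029), and *Kif1a* passed too (0.0073). Without the variance trend 6 partners were higher and 3 lower, and 1075 and 1217 of all genes against 1731 and 1934; the fold threshold left 521 and 137. The median of the transport kinesins was 0.31, 0.59 with no filter and 0.16 after the correction, and that of the other kinesins 0.03, and 0.27 with a mean of at least 50. The GC content and length correction turned the sign of *Kifc2* (-0.13), *Kif13a* (-0.13), *Kif24* (-0.13), *Kif21b* (-0.01), *Kif13b* (-0.03) and *Kif22* (0.00), quantile normalization that of *Kif24* (-0.11) and *Kif22* (0.08), and trimmed means that of *Kif5b* (-0.00), none of which was called. The cause of these changes was not tested, apart from a filter that changes which genes are tested and a fold threshold that removes the smaller changes.

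Leaving out 1 library gave 1 to 2 mitotic kinesins higher and 2 lower, 2 to 4 transport kinesins higher and 0 to 1 lower, 0 to 1 other kinesins higher, 9 to 12 partners higher and 4 to 7 lower, and 1321 to 1655 genes higher and 1641 to 1728 lower. Class medians ran from -0.05 to 0.02 (mitotic), 0.26 to 0.44 (transport) and 0.04 to 0.40 (other). The log2 ratio differences ran from -0.17 to 0.03 for *Kif2c* to *Kif2a* and from -0.25 to 0.09 for *Kif5b* to *Klc1*, with either sign, and kept their sign for the other 5 pairs: -1.14 to -0.59 (*Kif18a* to *Kif18b*), -0.74 to -0.61 (*Kif20a* to *Kif23*), 0.05 to 0.18 (*Kif23* to *Racgap1*), 0.33 to 0.72 (*Kif3a* to *Kif3b*) and -0.31 to -0.19 (*Kif4* to *Prc1*). Uncalled members whose sign turned when 1 library was left out were *Kif22* (-0.05 to 0.04), *Kif1bp* (-0.21 to 0.07), *Kif14* (-0.14 to 0.25), *Kif24* (-0.15 to 0.21), *Kif2c* (-0.02 to 0.07), *Kif21a* (-0.28 to 0.40), *Kif5b* (-0.02 to 0.05), *Kif13a* (-0.01 to 0.34), *Kifc5b* (-0.01 to 0.66) and *Kif20b* (-0.37 to 0.02).

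Same-numbered libraries did not deviate together (correlations 0.0007, -0.005 and -0.003), so they share a number only. With the replicate block, 1762 genes were higher and 1980 lower, the counts of kinesins were 1 and 2 (mitotic) and 4 and 1 (transport), and with the block and the correction together 2 transport kinesins were higher, with a median of 0.16. The simulation called 14 of 100 genes that changed by 0.5 on the log2 scale. It gave all genes the same dispersion and did not model read depth. Its share is not that of the data, in which *Kif23* was called at 0.40 and *Kif20a* at -0.27.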
